A study of Mus musculus with 8 samples.

Results

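The extracellular matrix genes examined here were 43 genes that fibroblasts express strongly, chosen by symbol from a table of 54838 mouse genes, in which all 43 had a row. They were read in RNA-seq libraries of male mouse induced pluripotent stem cells, which the sample labels call ESC, in 4 states with 2 libraries each. All cultures were kept on irradiated feeder cells, a layer of cells that cannot divide and that nourishes stem cells, in medium with serum, LIF and inhibitors of MEK and GSK3. Asynchronous libraries came from cycling cells. Mitotic libraries came from cells that had been moved to gelatin-coated plates, held in nocodazole (200 ng/ml, 6 h), which blocks spindle formation, and shaken off. Early G1 and late G1 libraries came from such cells after the drug had been washed out and the cells replated on gelatin, taken here as the 1 h and 3 h collections of the protocol. Whether the asynchronous cells were separated from the feeder layer before RNA extraction was not stated. Neither the strain nor the cell type of the feeders is stated. The labels name 2 independent clones as the biological replicates. A p-value here therefore reflects how far the 2 libraries of a state lie apart, which the fit of all 8 libraries pools over the 4 states. No genotype or allele sets the states apart.

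Fibroblasts build the interstitial matrix. They secrete fibrillar collagens, which are trimmed, crosslinked and decorated with proteoglycans, and they add adhesive glycoproteins, elastic fibre proteins and inhibitors of the proteases that take matrix down. Pluripotent cells make a different matrix, rich in laminin and fibronectin, and also secrete some of the same glycoproteins. A library of a whole dish holds the RNA of every cell in it, so fewer cells of a type and less RNA per cell cannot be told apart.

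Promoter sequences are shown first for members that fell far and hold the letters TATAAA. They are all the members with a start site in which those letters were found. Members that fell as far without the letters, such as Bgn and Fbln2, are not shown. For contrast, members that fell less follow. RefSeq (GRCm38.p6) start sites were found for 25 of the 43 members, and the start nearest to the gene's start in the annotation was used. Each sequence is the 150 bases before that start, 5′ to 3′ on the strand of the gene, with the searched letters in capitals: the motif TATAAA found near many start sites, the motif CCAAT, and the GC box letters GGGCGG, each on either strand and with no overlap between the matches shown. Postn (chr3:54360957-54361106, plus strand), Tnc (chr4:64047016-64047165, minus strand), Thbs2 (chr17:14694263-14694412, minus strand), Col3a1 (chr1:45311388-45311537, plus strand) and Igfbp4 (chr11:99041094-99041243, plus strand) all fell to under 5% of the asynchronous level in mitotic cells. Timp1 (chrX:20870016-20870165, plus strand) and Col6a3 (chr1:90843972-90844121, minus strand) kept over 20% of it.
Postn: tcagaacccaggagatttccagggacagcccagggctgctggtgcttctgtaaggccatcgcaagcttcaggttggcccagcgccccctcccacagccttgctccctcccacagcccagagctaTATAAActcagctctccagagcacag
Tnc: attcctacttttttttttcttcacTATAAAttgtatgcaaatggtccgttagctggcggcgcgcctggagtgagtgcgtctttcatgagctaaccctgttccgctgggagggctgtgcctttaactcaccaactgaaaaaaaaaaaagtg
Thbs2: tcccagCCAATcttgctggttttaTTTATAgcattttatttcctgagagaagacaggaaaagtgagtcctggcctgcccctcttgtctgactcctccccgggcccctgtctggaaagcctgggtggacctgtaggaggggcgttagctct
Col3a1: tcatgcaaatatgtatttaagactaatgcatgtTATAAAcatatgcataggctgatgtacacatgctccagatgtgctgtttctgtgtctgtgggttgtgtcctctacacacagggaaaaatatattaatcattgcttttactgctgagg
Igfbp4: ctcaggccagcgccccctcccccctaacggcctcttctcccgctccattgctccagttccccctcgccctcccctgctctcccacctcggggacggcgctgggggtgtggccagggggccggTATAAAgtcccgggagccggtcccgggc
Timp1: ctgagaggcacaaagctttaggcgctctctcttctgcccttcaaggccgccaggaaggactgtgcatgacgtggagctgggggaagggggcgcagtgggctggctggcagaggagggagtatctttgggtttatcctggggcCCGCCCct
Col6a3: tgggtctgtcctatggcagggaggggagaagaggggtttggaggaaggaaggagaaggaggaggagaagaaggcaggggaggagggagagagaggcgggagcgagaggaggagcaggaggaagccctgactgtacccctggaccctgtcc

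In the full windows of 300 bases (250 before the start and 50 after it), TATAAA was found in 5 members, all of which were among the 10 matched members that fell to under 5%. Of all 32851 windows in the RefSeq table, 13.6% held it. The letters ended 21 bases before the start in Postn and 23 before it in Igfbp4, where a TATA box usually lies. In Tnc and Thbs2 they ended 121 bases before it and in Col3a1 112 before it, further upstream. None of the 9 matched members that kept at least 20% held them, which says only that these letters are not in those windows. GGGCGG was in 15 of the 25 members (35.7% of all windows), CCAAT in 7 (37.4%), GGAATG, the TEAD motif, in 3 (14.7%), TGANTCA, the AP-1 motif, in 1 (7.81%) and the CArG box in 0 (1.63%). The motifs were picked after levels had been seen, GGAATG and the others were searched on both strands, and for Sparc, Pcolce and Col1a2 the RefSeq start lay 3103, 2380 and 804 bases from the annotated gene start.

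Total counts ran from 20410621 to 25615244 per library, and 3 counts corresponded to between 0.116 and 0.152 CPM (a gene's share of its library's counts), a floor that covers counting error only. The members took 0.634% and 0.529% of all counts in the 2 asynchronous libraries and between 0.196% and 0.226% in the other 6. Their summed level, in CPM scaled by edgeR's TMM factors, was 6103 and 5470 in asynchronous cells, 2332 and 2018 in mitotic cells, 2151 and 2231 in early G1 cells and 2074 and 1951 in late G1 cells. Every later library held less than either asynchronous one. Of the 43 members 41 had enough counts to be tested, and Fap and Lum did not. Adjusted p throughout is from edgeR's quasi-likelihood test on all 8 libraries with Benjamini-Hochberg adjustment over 19101 genes, called under 0.05.

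In mitotic against asynchronous cells 34 of the 41 members were lower, where 22.4% of all tested genes were, 1 was higher (18.3% of all genes) and 6 were not called. In early G1 against asynchronous cells 37 were lower (24.7% of all genes), 1 was higher (21.3%) and 3 were not called. In late G1 37 were lower (26.0% of all genes), 2 were higher (22.7%) and 2 were not called. The median log2 fold change of the members was -3.93, -3.37 and -4.09 in that order, against -0.05, -0.03 and -0.03 over all tested genes. These comparisons share the asynchronous libraries, so they do not count as 3 separate observations.

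The fall was uneven, and the members were therefore separated by their mean mitotic CPM as a percent of the mean asynchronous CPM. This sorting uses the mitotic and asynchronous values themselves and is a description. Under 5% remained of 17 members, called depleted here, between 5% and 20% of 10, called intermediate, and 20% or more of 13, called retained. The remaining 3 (Fap, Lum and Pdgfra) were below 1 CPM in asynchronous cells and were not classed. Of 15658 tested genes with at least 1 CPM in asynchronous cells, 0.524% kept under 5%, 3.74% kept 5% to 20% and 95.7% kept 20% or more, with a median of 94.4%. The limits cut through a near-continuous series: Fbln2 at 4.43% lay just inside the depleted class and Thbs1 at 5.03% just outside it, and Col5a1 at 17.6% and Col6a3 at 21.3% lay on either side of the other limit. Members near a limit change class with its choice.

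**Figure D1:**
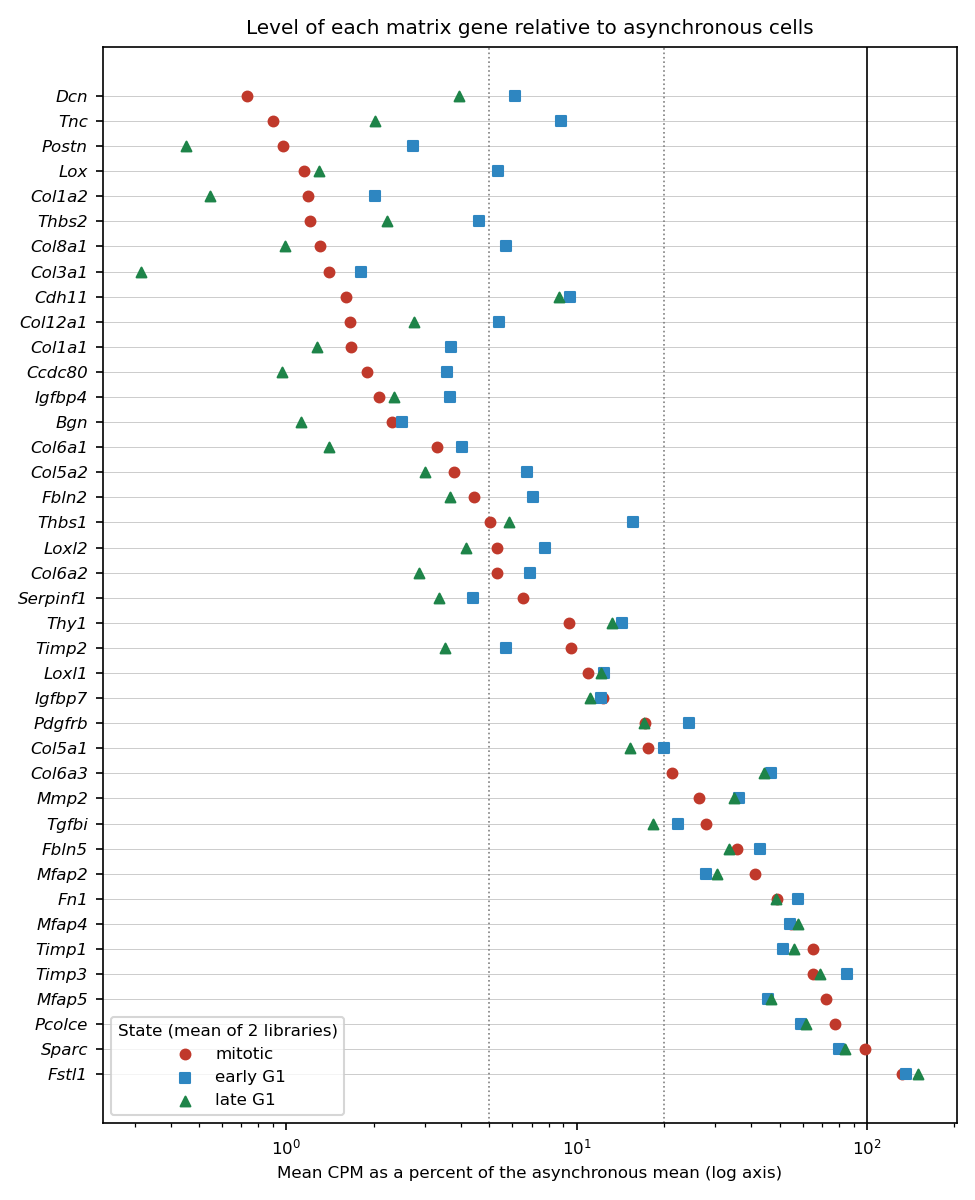
Mean CPM of each of the 40 classed members in mitotic (circles), early G1 (squares) and late G1 cells (triangles) as a percent of its asynchronous mean, on a log axis, with means of 2 libraries and genes ordered by the mitotic value. Dotted lines mark 5% and 20% and the solid line 100%; the mitotic values run without a gap from 0.733% for Dcn to 132% for Fstl1.

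The depleted class held most of the structural collagen of the set. Of the 5 fibrillar collagen genes, whose products form the banded fibres of skin, bone and tendon, 4 were in it. Col1a1, which codes for a type I collagen chain (ENSMUSG00000001506, chr11:94936224-94953042, plus strand, build mm10 throughout), was at 509 and 554 CPM in asynchronous cells, 7.59 and 10.1 in mitotic cells, 21.5 and 17.7 in early G1 cells and 7.62 and 5.96 in late G1 cells. Both asynchronous libraries lay far above all others, and both early G1 libraries above the mitotic and late G1 ones. Its partner chain Col1a2 was at 228 and 215 CPM, then 1.73 and 3.54, 5.05 and 3.90, and 2.14 and 0.281, so its late G1 libraries differed widely at few counts. Col3a1, the chain of type III collagen (chr1:45311538-45349706), went from 114 and 90.9 CPM to 1.10 and 1.77, 2.41 and 1.27, and 0.319 and 0.328, the lowest late G1 level of the class relative to asynchronous cells (0.316%). Col5a2, which codes for a chain of type V collagen, kept 3.78% in mitotic cells. Its partner Col5a1 was the exception among fibrillar collagens, with 160 and 160 CPM in asynchronous, 22.5 and 33.8 in mitotic, 33.6 and 30.6 in early G1 cells and 26.6 and 22.1 in late G1 cells.

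Among the non-fibrillar collagens, Col12a1, which coats fibres, kept 1.66%, Col8a1, a short network collagen, 1.30%, and Col6a1, a chain of the beaded filaments of type VI collagen, 3.31%. The other type VI chains kept more: Col6a2 5.33% and Col6a3 21.3%, although Col6a3 was low from the start, at 4.42 and 4.16 CPM in asynchronous and 1.05 and 0.777 in mitotic cells. The difference between type VI chains was not tested. The proteoglycans that bind collagen fibres were depleted where they could be measured. Bgn, which encodes biglycan, fell from 151 and 196 CPM to 3.50 and 4.49. Dcn, which encodes decorin and marks many adult fibroblasts, was low even in asynchronous cells (2.75 and 3.14 CPM), and 131 counts there stood against 1 in the mitotic libraries. That left 0.73% with an exact 95% interval of 0.0183% to 4.14%.

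Matricellular glycoproteins, which adjust how cells grip the matrix, fell on both sides of the divide. Postn (periostin, ENSMUSG00000027750, chr3:54361109-54391037, plus strand) went from 101 and 83.6 CPM to 0.885 and 0.907 in mitotic cells, 2.64 and 2.40 in early G1 cells and 0.456 and 0.375 in late G1 cells. Tnc (tenascin C, chr4:63959785-64047015, minus strand) was at 94.9 and 80.4 CPM, then 0.674 and 0.907, 8.03 and 7.42, and 2.14 and 1.41. Thbs2 (thrombospondin 2) stood at 76.0 and 69.5 CPM, then 0.548 and 1.21, 3.64 and 3.05, and 1.73 and 1.50. All 3 kept about the same share in mitotic cells (0.969%, 0.902% and 1.21%), and Tnc alone of them came back above 5%, to 8.81%, in early G1. Their relative Thbs1 was the first of the intermediate class, with 290 and 174 CPM, then 12.7 and 10.6, 34.3 and 38.0, and 18.2 and 8.96. Its asynchronous libraries differed by 1.66-fold.

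The enzyme Lox, which crosslinks collagen and elastin, went from 130 and 99.7 CPM to 1.22 and 1.42, 4.86 and 7.46, and 2.14 and 0.844. Its family members kept more in mitotic cells: Loxl2 5.30% and Loxl1 10.9%. Mmp2, a gelatin-cleaving protease, kept 26.3%, with 51.4 and 37.5 CPM in asynchronous and 14.2 and 9.20 in mitotic cells. Igfbp4, a secreted inhibitor of insulin-like growth factors, fell from 179 and 185 CPM to 4.26 and 3.37, while Igfbp7 kept 12.3%. At the cell surface, the adhesion molecule Cdh11 had 123 counts in asynchronous and 2 in mitotic libraries (1.56%, exact 95% interval 0.186% to 5.74%), and the fibroblast and neuronal antigen Thy1 kept 9.40%. Ccdc80, a secreted matrix-binding protein, kept 1.89%. Fbln2, the elastic fibre protein nearest to the class limit, was at 197 and 196 CPM in asynchronous, 8.77 and 8.68 in mitotic, 14.4 and 13.4 in early G1 cells and 7.48 and 6.90 in late G1 cells.

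**Figure D2:**
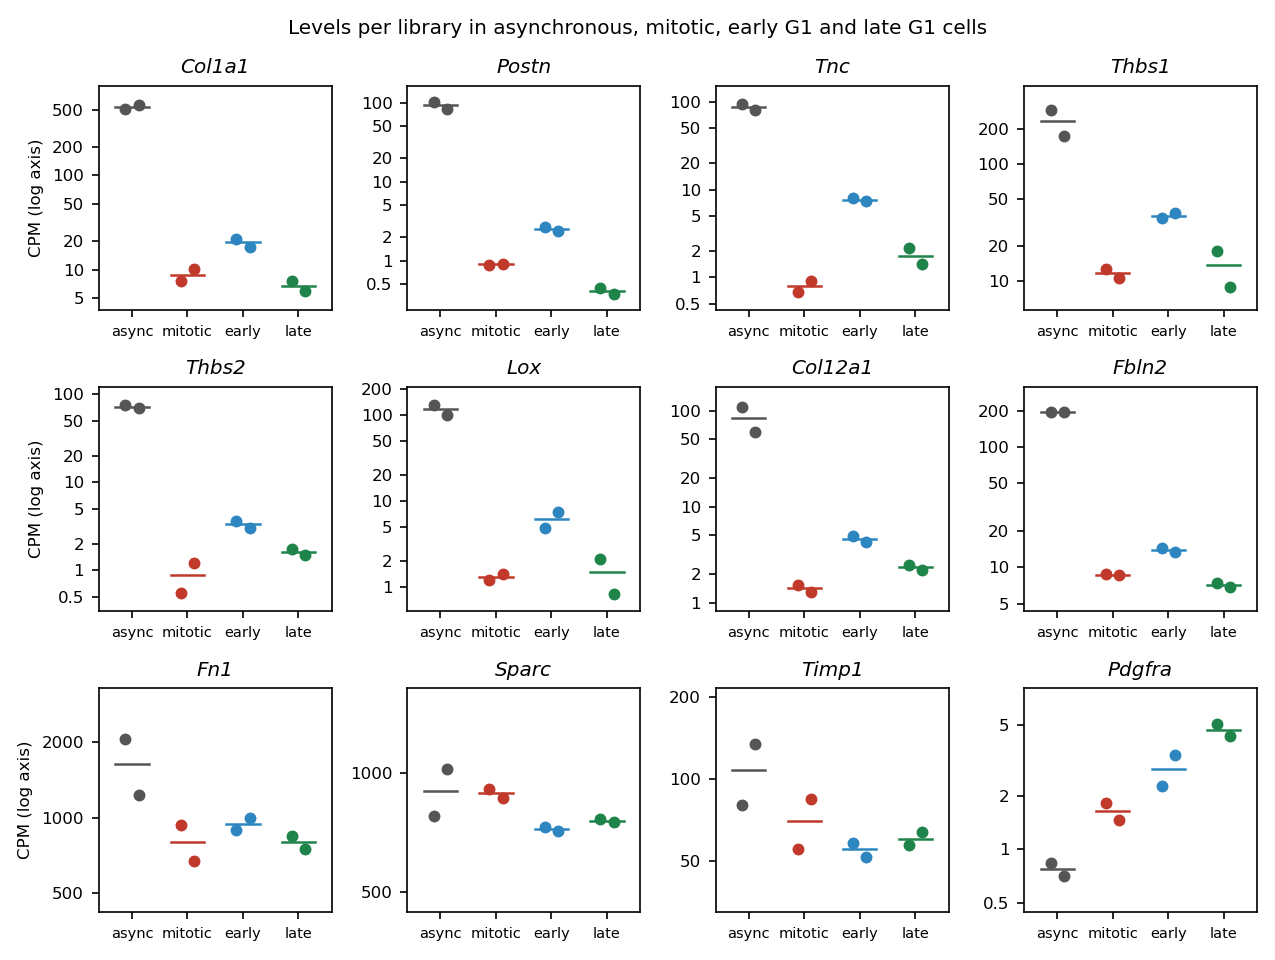
CPM of 12 members in each library (points, with the mean of 2 as a line) by state, each panel with its own log axis. In the upper 2 rows the asynchronous libraries lie far above the rest and both early G1 libraries above both mitotic ones, as for Tnc (0.674 and 0.907 against 8.03 and 7.42 CPM). In the lower row Fn1, Sparc and Timp1 stay within 4-fold over all libraries and Pdgfra climbs from 0.710 to 5.02 CPM.

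The retained class held the 3 members with the highest level per length in asynchronous cells. Retained does not mean unchanged. Called lower were 7 of its 13 members in mitotic cells (22.4% of all genes) and 10 in early and in late G1 (24.7% and 26.0%). In late G1 1 was higher (22.7%). Sparc, which encodes a collagen-binding glycoprotein (ENSMUSG00000018593, chr11:55394500-55423183, minus strand), was at 776 and 1021 CPM in asynchronous cells, 909 and 865 in mitotic cells, 728 and 712 in early G1 cells and 763 and 751 in late G1 cells. The mitotic values lay between the asynchronous ones, and none of its 3 comparisons with asynchronous cells was called (adjusted p = 0.927, 0.0961 and 0.178). Per kilobase of exon its asynchronous level was 237 CPM, ahead of Fn1 at 140 and Timp1 at 121, while Col1a1, the highest of the depleted class, was at 81.0. In mitotic cells Sparc was at 234 CPM per kilobase and Col1a1 at 1.35.

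Fn1, which encodes fibronectin (chr1:71585520-71653200, minus strand), was at 2048 and 1228 CPM in asynchronous cells, 936 and 673 in mitotic cells, 892 and 997 in early G1 cells and 844 and 752 in late G1 cells. Both asynchronous libraries were above all others, but they differed from each other by 1.67-fold. It was called lower in mitotic cells (log2 fold change -1.03 ± 0.25 SE, adjusted p = 0.0123), and this call was lost without mitotic replicate 2 or when the 2 groups were fitted alone (adjusted p from 0.0512 to 0.0926). Timp1, an inhibitor of matrix metalloproteinases (chrX:20870166-20874735, plus strand), was at 80.1 and 134 CPM, then 55.3 and 84.3, 58.3 and 51.8, and 57.1 and 63.5. Its mitotic libraries overlapped the asynchronous ones and it was not called there (adjusted p = 0.0966). Timp1 was called lower in early and late G1 (log2 fold change -0.96 and -0.83, adjusted p = 0.0197 and 0.0325). Both calls were lost by the fit of the 2 groups alone. Its relatives split, Timp3 keeping 65.2% in mitotic cells and Timp2 9.54%. Timp3 was not called in any comparison with asynchronous cells.

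Fstl1, a secreted glycoprotein that modulates BMP signalling, was the classed member with the largest percent: 113 and 91.8 CPM in asynchronous, 166 and 104 in mitotic, 135 and 144 in early G1 cells and 149 and 158 in late G1 cells. It was called higher in late G1 only narrowly (log2 fold change 0.58 ± 0.21 SE, adjusted p = 0.0488), and the call was lost without asynchronous replicate 2 or any 1 of the G1 libraries (adjusted p from 0.0762 to 0.177). Pcolce, which enhances collagen trimming, kept 77.5% in mitotic cells and was called lower in early and late G1 (log2 fold change -0.75 and -0.70). Each of these calls was lost by the fit of the 2 groups alone and without either replicate of that G1 state (adjusted p from 0.0757 to 0.121). The elastic fibre proteins Mfap2, Mfap4, Mfap5 and Fbln5 were all retained, at 41.2%, 54.8%, 72.4% and 35.5%, but at asynchronous means of only 2.58 to 7.72 CPM. Tgfbi, an integrin-binding matrix protein, kept 27.8% in mitotic cells and 18.3% in late G1, below the limit.

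How much of a retained level the depleted genes' remainder would account for can be set out as arithmetic. At the highest percent seen in the depleted class (4.43%), the asynchronous level of Fn1 would leave 72.6 CPM in mitotic cells, where 804 ± 186 (SD, n = 2) was measured. For Sparc it would leave 39.8 CPM against 887 ± 31.6, and for Timp1 4.75 against 69.8 ± 20.5. These gaps restate the percents that made the classes and are no further evidence. The cells a transcript came from were not measured.

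Fap and Lum could not be followed. Fap, a protease of activated fibroblasts, had 19 counts in asynchronous and 0 in mitotic libraries, which allows up to 20.5% to remain (exact 95% interval), and Lum, the collagen-binding proteoglycan lumican, had 12 and 2. Pdgfra, the receptor for platelet-derived growth factor that is widely used as a marker of embryonic fibroblasts, went against the label of the set. It was at 0.836 and 0.710 CPM in asynchronous cells, 1.81 and 1.47 in mitotic cells, 2.27 and 3.36 in early G1 cells and 5.02 and 4.32 in late G1 cells, with no overlap between neighbouring states. It was higher in late G1 than in asynchronous cells by 2.58 ± 0.31 SE on the log2 scale (adjusted p = 0.000501) and than in mitotic cells by 1.51 ± 0.29 (adjusted p = 0.0188). The latter call was lost without any 1 of the mitotic or late G1 libraries (adjusted p from 0.0870 to 0.163). The smaller rise in mitotic cells (log2 1.07, adjusted p = 0.0296) was lost under 8 alternatives (adjusted p from 0.0550 to 0.130). Its sister receptor Pdgfrb, in contrast, was lower in mitotic cells (log2 fold change -2.54 ± 0.35 SE, adjusted p = 0.00114).

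The asynchronous clones held similar amounts of the depleted genes. Their ratio of replicate 1 to replicate 2 had a median of 1.09 and ran from 0.771 (Bgn) to 1.85 (Col12a1), against a median of 1.01 and a middle 90% from 0.517 to 2.02 over 15658 genes. Summed over the class, the depleted genes were at 2086 and 1992 CPM in asynchronous cells, 36.8 and 43.4 in mitotic cells, 90.5 and 80.0 in early G1 cells and 37.0 and 29.9 in late G1 cells. The retained genes summed to 3257 and 2774, 2231 and 1898, 1958 and 2049, and 1962 and 1863 CPM. The depleted sum was higher in both early G1 libraries than in either late G1 library, and the retained sums of these states overlapped. Since low mitotic values put genes into the depleted class, its mitotic sum is given as a description only.

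**Figure D3:**
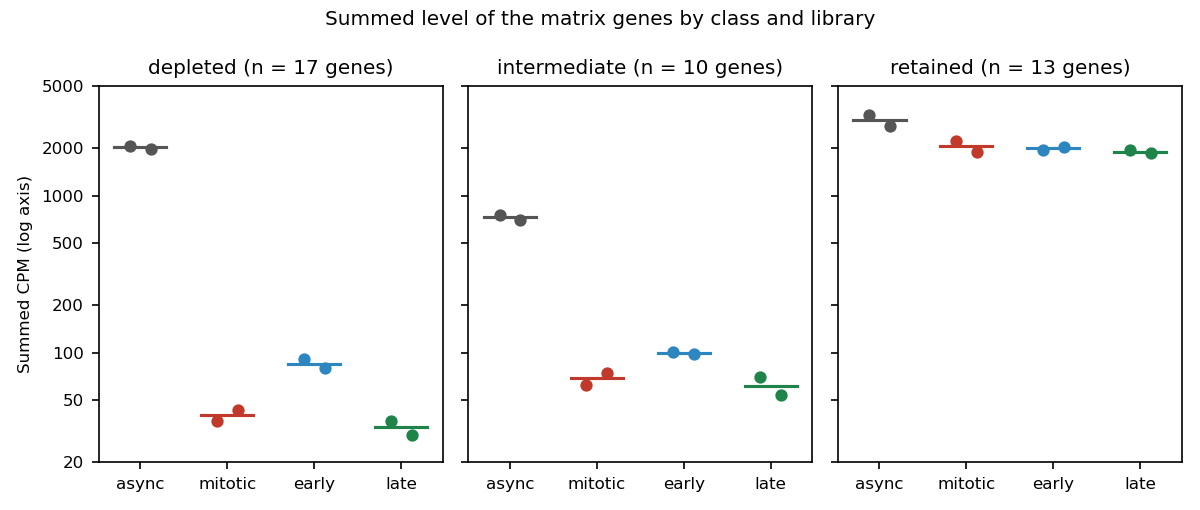
Summed CPM of the depleted, intermediate and retained members in each library (points, with the mean of 2 as a line) by state, on 1 shared log axis. The depleted sum falls from 2086 and 1992 CPM to 36.8 and 43.4 in mitotic cells, stands at 90.5 and 80.0 in early G1 cells and at 37.0 and 29.9 in late G1, while the retained sum stays between 1863 and 3257 CPM.

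Some members were higher in early G1 than in mitotic cells. In early G1 against mitotic cells 8 of 41 members were higher, where 3.21% of all tested genes were, and 0 were lower (1.42% of all genes). These were Tnc, Postn, Lox, Thbs2, Col12a1, Col1a1 and Fbln2 of the depleted class and the intermediate Thbs1. Since a low mitotic value put a gene into the depleted class, its share of these rises is not read further. The rise was unequal, with early G1 means 9.77 times the mitotic mean for Tnc, 4.65 for Lox, 3.81 for Thbs2, 2.81 for Postn, 2.21 for Col1a1 and 1.59 for Fbln2, but 1.29 for Col3a1 and 1.08 for Bgn, which were not called. Timp2 (0.60 times) and Serpinf1 (0.67 times), which encodes an anti-angiogenic serpin, had lower early G1 means and were not called either.

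Tnc had the largest rise, of 3.28 ± 0.25 SE on the log2 scale (adjusted p = 0.00124), and stayed called without each library in turn. The other 7 calls were each lost in at least 4 of those fits. Without 1 mitotic or 1 early G1 library, the calls left were 1 without mitotic replicate 1, 2 without mitotic replicate 2 and 1 without either early G1 replicate, and 5 without either late G1 replicate. Without either asynchronous library, in contrast, more members were called higher. The share of all genes called in those fits was not set beside them, so this gain is not read further. For Postn the rise was 1.48 ± 0.21 SE (adjusted p = 0.0110) and for Lox 2.22 ± 0.39 (adjusted p = 0.0212). Thbs2 rose by 1.92 ± 0.31 (adjusted p = 0.0164) and Col12a1 by 1.70 ± 0.33 (adjusted p = 0.0320). Col1a1 rose by 1.14 ± 0.19 (adjusted p = 0.0182), Thbs1 by 1.63 ± 0.34 (adjusted p = 0.0386) and Fbln2 by 0.67 ± 0.13 (adjusted p = 0.0281). DESeq2 called 11 members higher (4.41% of all genes) and 0 lower. The 11 were these 8 with Col8a1, Igfbp4 and Col5a2. The edgeR fit of the 2 groups alone called 9 higher (9.47% of all genes) and 2, Pcolce and Sparc, lower (5.86%). With asynchronous and mitotic replicate 1 left out together, 17 were higher and 6 lower, at a background of 20.8% and 19.3%.

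From early to late G1 the levels went down again. In 16 of the 17 depleted genes both late G1 libraries lay below both early G1 libraries, as in 25.9% of all tested genes. This comparison plays no part in the class rule. No member was called by the fit of all 8 libraries, nor was any of the 19101 genes (0.0% in either direction). In that fit 20 members had an unadjusted p under 0.05. The share of all genes under that limit was not set beside this count, so the count is not read further. That fit pools the spread of all states, and replicates differed more in some than in others. The mean chi-square per gene between replicates was 65.4 in asynchronous, 22.3 in mitotic, 3.96 in early G1 and 3 in late G1 cells. DESeq2 called 9 members lower and 0 higher, where 0.0861% of all genes were lower and 0.0253% higher. These 9 were 9 of the 17 genes that DESeq2 called lower in the whole table: Tnc, Col1a1, Postn, Lox, Col3a1, Fbln2, Col5a2 and Ccdc80 of the depleted class, and Thbs1. The edgeR fit of the 2 G1 groups alone called 17 of 39 tested members lower (4.94% of all genes) and Pdgfra higher (3.5%). With asynchronous and mitotic replicate 1 left out together, 15 of 41 were lower (4.69%) and Pdgfra was higher (3.01%).

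By DESeq2, Postn was lower in late G1 by -2.59 ± 0.42 SE on the log2 scale (adjusted p = 4.61e-06), Col3a1 by -2.48 ± 0.49 (adjusted p = 0.00156) and Tnc by -2.11 ± 0.28 (adjusted p = 7.15e-10). Col1a1 was lower by -1.52 ± 0.22 (adjusted p = 6.69e-08). The retained genes stayed near their early G1 level, with a median log2 fold change of 0.04, against -1.47 for the depleted class and -0.46 for the intermediate class. The comparisons of early G1 with mitotic and with late G1 cells share the early G1 libraries.

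**Figure D4:**
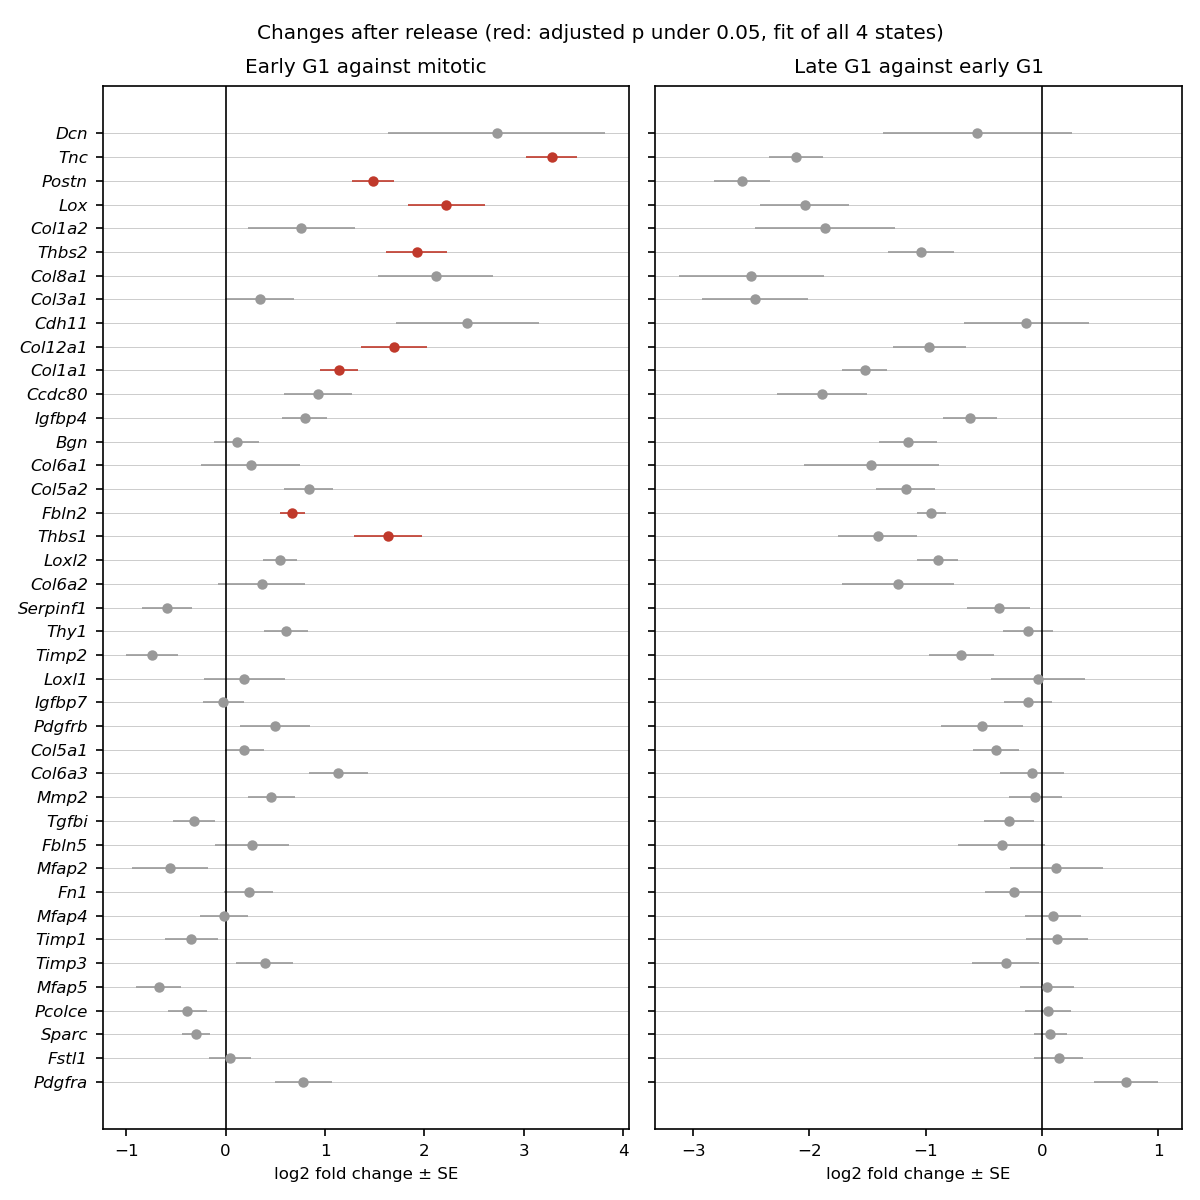
Log2 fold change ± SE of each tested member in early G1 against mitotic cells (left) and in late G1 against early G1 cells (right), by the edgeR fit of all 8 libraries, with genes ordered by mitotic percent and calls in red. On the left 8 genes are called higher, led by Tnc at 3.28; on the right none is called, and depleted genes lie at negative values down to -2.58 for Postn while retained genes lie near 0.

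Late G1 against mitotic cells left 2 members higher (5.43% of all genes), Tnc and Pdgfra, and 4 lower (4.04%): Postn, Col3a1, Bgn and Timp2. Tnc was still 1.17 ± 0.28 SE above its mitotic level on the log2 scale (adjusted p = 0.0412). Col3a1 was lower by -2.12 ± 0.47 (adjusted p = 0.0296), Timp2 by -1.43 ± 0.27 (adjusted p = 0.0189), Postn by -1.10 ± 0.28 (adjusted p = 0.0491) and Bgn by -1.04 ± 0.25 (adjusted p = 0.0377). Col3a1 and Postn thus had late G1 means below the mitotic mean and Tnc one above it, while the count of higher members was near the share of all genes. The Postn call was also lost by DESeq2, by the fit of the 2 groups alone and with a replicate block. The Tnc call was lost by the fit of the 2 groups alone. Without any 1 of the mitotic or late G1 libraries, 0 members were called in either direction here. With either early G1 library left out fewer members were called, and with either asynchronous library left out more were. The share of all genes called in these fits was not set beside them.

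Other genes of the same biology were taken from lists. Of 24 tested genes in a list of other fibroblast matrix genes, 18 were lower and 1 was higher in mitotic than in asynchronous cells. Of all tested genes 22.4% were lower and 18.3% higher. The median log2 fold change of the list was -1.84, against -0.05 over all tested genes. Aspn, a small proteoglycan, went from 7.98 ± 2.18 to 0.213 ± 0.00364 CPM (SD, n = 2), Ltbp3, which stores latent TGF-beta, from 26.4 ± 2.54 to 1.92 ± 0.269, and Fbln1, an elastic fibre protein, from 161 ± 8.51 to 48.5 ± 0.859. None of the 24 was called higher or lower in early G1 than in mitotic cells by edgeR, where 3.21% and 1.42% of all genes were. At those shares few calls could be looked for among 24 genes, so their absence is not read further. Of the 24, 2 had an unadjusted p under 0.05, a count not set against a share of all genes. Ltbp2, for one, stood at 37.5, 2.85, 2.23 and 1.68 CPM in the 4 states, without the early G1 rise of Tnc. Whether the 2 lists differ there was not tested.

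Of 11 tested fibroblast transcription factors 4 were lower in mitotic cells and 1 was higher (22.4% and 18.3% of all genes), with a median log2 fold change of -0.41, so the list as a whole is not read as a change. Prrx1, a homeobox factor of limb and connective tissue mesenchyme, went from 8.26 ± 1.21 to 0.0853 ± 0.00146 CPM, a level below 3 counts, and Twist2 from 0.659 ± 0.144 to 0.0211 ± 0.0298. Prrx2 was lower at 8.47 ± 3.65 and 2.24 ± 0.233 CPM. Meox1, the factor that was higher, was at 0.119 ± 0.169 and 1.02 ± 0.344. Of 15 collagen-processing genes 8 were lower and 0 higher, led by Bmp1, which cuts procollagen (26.9 ± 1.10 to 5.72 ± 0.0373 CPM), and the prolyl hydroxylases P4ha2 and P4ha1. All 10 genes of a hypoxia list, which holds no collagen gene, were lower too, Ndrg1 by -3.32 on the log2 scale. The part of low oxygen in any member's level was not tested.

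Of 11 basement membrane genes 3 were higher in mitotic than in asynchronous cells (Lama1, Lamc1 and Lama5, chains of laminin) and 3 lower (Col4a1, Col4a2 and Lamb1), near the 18.3% and 22.4% of all tested genes. Lama1 was at 46.2 ± 5.55 in asynchronous and 102 ± 17.9 CPM in mitotic cells, Lamc1 at 291 ± 97.8 and 590 ± 85.2, and Col4a2 at 126 ± 19.0 and 64.1 ± 11.0. Of 14 integrins and matrix receptors 3 were higher and 3 lower, again near those shares. Itga11, the collagen-binding integrin chain of fibroblasts, was lower, at 24.9 ± 4.09 and 0.403 ± 0.204 CPM, and so was the hyaluronan receptor Cd44, at 8.04 ± 0.453 and 1.34 ± 0.0675. The collagen receptor Ddr1 was higher, at 28.0 ± 1.54 and 51.0 ± 2.30. Of 8 contractile and mesenchymal genes 4 were lower, among them smooth muscle actin Acta2 (101 ± 36.0 to 11.7 ± 3.84), Tpm2 and Cnn1.

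Markers of other cells were read beside the members, in a table where 18.3% of all genes were higher and 22.4% lower in mitotic than in asynchronous cells. Stem cell markers were high in every state, their 10 genes summing to between 5588 and 7292 CPM, and 6 were higher in mitotic cells, led by Lin28a and Zfp42, and 1, Tdgf1, lower. Of 12 tested macrophage genes 5 were higher in mitotic than in asynchronous cells (Lyz2, Cd14, Csf1r, C1qc and Adgre1). In early G1 against mitotic cells 9 of the 12 were lower, where 1.42% of all genes were. The macrophage list summed to 87.8 and 87.0 CPM in asynchronous, 120 and 104 in mitotic and between 43.2 and 51.4 in G1 libraries. Cd68 was the largest part of that sum in every state. Its means were 58.4 CPM in asynchronous, 47.4 in mitotic, 41.5 in early G1 and 44.3 in late G1 cells. Lyz2 was at 9.44 and 14.7, 28.7 and 30.8, 0.756 and 0.116, and 0 and 0 CPM, so this gene did not rise with the members called higher in early G1. Of other lists, the endothelial genes Kdr (0.623 ± 0.0203 to 4.95 ± 0.627 CPM), Esam and Tek and the neural crest gene Ngfr (31.9 ± 3.02 to 75.3 ± 0.593) were higher in mitotic cells, while the defining endothelial marker Cdh5 was at 0 to 0.159 CPM in all libraries and not tested. Of 5 tested skeletal muscle genes 2 were lower, Des and Acta1, and of 6 extraembryonic endoderm genes 3 were lower, Gata4, Col4a1 and Lamb1, counts too small to set against that share. Their part in the members' changes was not tested.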

How the data were processed

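Per-gene read counts, deposited by the authors as unnormalised whole numbers, covered 54838 Ensembl genes and 8 libraries, and 20402 genes had 0 counts everywhere. Libraries were poly(A)-selected and strand-marked and read as single reads, per the labels' protocols. The submitters' processing notes name HTSeq, SAMtools, TopHat2 and build mm10 and give no settings. The strand setting of the counting is not given in the sources used here, so values of members whose exons overlap another gene's (Col3a1, Col5a1, Fn1, Igfbp7, Lox, Loxl2, Mfap4, Pcolce, Pdgfra, Thbs1, Timp3 and Tnc) are less certain.

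Symbols, coordinates (1-based) and exon lengths came from GENCODE M21 (GRCm38). Counts were tested in R 4.3.3 with edgeR 4.0.16: filterByExpr with a minimum count of 10, TMM scaling and a robust quasi-likelihood fit of 4 states over 8 libraries with 4 residual degrees of freedom and no replicate block, two-sided, called at an adjusted p under 0.05. Levels are TMM-scaled CPM. DESeq2 1.42.0, other scalings and filters, the fit of 2 groups alone, a replicate block and leaving out libraries were alternatives. The code was tested on simulated data.

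The members and gene lists were chosen with earlier results of these data known. Named were members called between mitotic, early and late G1 cells, the 3 highest asynchronous levels per length, the members with the lowest and highest percents or nearest to a class limit, and from other lists the 3 called genes with the smallest p in mitotic against asynchronous cells and any marker of another cell type called higher. Further members and the examples Ltbp2, Ccdc80 and the TATA box genes were named after their values were seen. Exact 95% intervals of count ratios cover counting error only.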

Additional observations from a re-analysis of the deposited data

How the results depend on the processing

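The counts of members lower than in asynchronous cells held under the alternatives run: 30 to 38 for mitotic, 31 to 38 for early G1 and 30 to 38 for late G1 cells. Counts of members higher than in asynchronous cells were small and moved. In mitotic cells (1) the count was 2 with every gene of at least 1 count tested, 0 by the fit of the 2 groups alone and by DESeq2, and 0 to 1 without 1 library each. In early G1 (1) it was 2 without the count filter, 2 with asynchronous and mitotic replicate 1 left out together, an alternative added after seeing the data, and 1 to 2 without 1 library each. In late G1 (2) it was 1 to 2 without 1 library each.

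In early G1 against mitotic cells the 8 higher members became 13 without the count filter, 17 without asynchronous and mitotic replicate 1, and 1 to 15 without 1 library each. The 0 lower members became 1 without the filter, 2 by the fit of the 2 groups alone, 6 without asynchronous and mitotic replicate 1, and 0 to 4 without 1 library each. In late G1 against early G1 the 0 higher members became 1 by the fit of the 2 groups alone and 1 without asynchronous and mitotic replicate 1. The 0 lower members became 13 without the filter, 17 by the fit of the 2 groups alone, 15 without asynchronous and mitotic replicate 1, 9 by DESeq2, and 0 to 4 without 1 library each. In late G1 against mitotic cells the 2 higher members became 1 by the fit of the 2 groups alone, 8 without asynchronous and mitotic replicate 1, and 0 to 5 without 1 library each. The 4 lower members became 13 without asynchronous and mitotic replicate 1 and 0 to 8 without 1 library each. Where no share of all genes is given above for a fit, its count was not set against one. The cause was not tested. Fn1 in late G1 against mitotic cells turned from -0.01 to 0.24 on the log2 scale without asynchronous and mitotic replicate 1 (adjusted p = 0.00523).

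With the early G1 level in place of the mitotic one, 10 members in place of 17 were depleted. Deviations of same-numbered libraries went together between asynchronous and mitotic cells (correlation 0.621 over 12037 genes) but not between other states (from -0.365 for asynchronous with early G1 to 0.0572), and the labels do not say what a number marks, so the numbers were not taken to pair the samples. With a replicate block the counts of calls were the same as without it (34 and 1, 37 and 1, 37 and 2 against asynchronous cells, 8 and 0 in early G1 against mitotic cells), except that 3 members in place of 4 were lower in late G1 against mitotic cells, Postn being lost at adjusted p = 0.0512. Members near the floor of 0.116 to 0.152 CPM, such as Dcn, Cdh11, Fap and Lum, are limited by depth.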
